A study of Mus musculus with 6 samples.

Results

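The colony-stimulating factors and their receptors were followed in endothelial cells of mammary tumor-bearing mice with and without Ets2 in the surrounding fibroblasts. The set holds 8 genes: the ligands Csf1, Il34, Csf2 and Csf3 and the receptor genes Csf1r, Csf2ra, Csf2rb and Csf3r. They were chosen by family and not by their values, although earlier results of these data were known. All 8 were measured among 18193 genes, on 15 of the 45037 probe sets tested. No member differed between the groups beyond the spread of the arrays. For each of the 15 probe sets the values of the control and the deleted group overlapped. Among all probe sets, 6.44% separated the groups completely, 2.83% with the deleted samples lower and 3.61% with them higher.

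All 6 samples came from mammary glands of FVB/N mice, 9 weeks of age, with the PyMT oncogene, which drives mammary tumors from the epithelium. The control group (PyMT;Ets2db/loxP, n = 3) and the deleted group (PyMT;Fsp-cre;Ets2db/loxP, n = 3) shared 1 Ets2 allele disrupted in its DNA-binding domain in every cell (Ets2db) and 1 floxed allele. The groups differed in the Cre transgene, which is driven by the promoter of Fsp1 (S100a4), a gene of fibroblasts that some myeloid cells also express. Cells were sorted from the mammary gland with an antibody to CD31 (Pecam1), and amplified RNA was hybridised to 1 Affymetrix array per sample. For the controls, a label field speaks of glands without oncogene, while PyMT stands in their titles and genotypes, which were followed here. The sources used here do not say whether mice were pooled, and the p-values measure the spread between these 6 samples.

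The colony-stimulating factors are secreted proteins that govern the formation, survival and activation of myeloid cells. CSF1 and IL-34 are unrelated in sequence but bind the same receptor tyrosine kinase, CSF1R, on which most tissue macrophages depend. CSF2 (GM-CSF) signals through a specific alpha chain, Csf2ra, joined to the common beta chain Csf2rb, which also serves IL-3 and IL-5. CSF3 (G-CSF) acts through Csf3r and governs the output of neutrophils. Endothelial cells are a source of CSF1, and release CSF2 and CSF3 when stimulated by inflammatory cytokines, while the receptors are mostly genes of macrophages, monocytes and granulocytes. In RNA of a sorted population, fewer cells of a type and less RNA per cell cannot be told apart.

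Signals are given as log2 intensities of the array, so that a difference of 1 is a doubling. Each probe set has its own sensitivity, so that the members were not ranked by level, and the signals of genes of tissues not sampled serve below only as a rough guide to dimness. The label was examined with marker lists. The endothelial list (12 of 12 genes measured) had array means of 11.88 to 12.22 in control and 12.04 to 12.38 in deleted samples. Epithelial genes were as bright in this CD31 sort, with a median signal of 12.48 over the 10 genes of that list, against 12.28 for the endothelial list. Array means of the epithelial list were 12.36 to 12.73 in control and 12.26 to 12.72 in deleted samples. The pan-leukocyte list (10 genes) averaged 9.07 to 9.61 in control and 8.63 to 9.37 in deleted samples, and the fibroblast list (10 genes) 9.55 to 10.03 and 9.06 to 9.23. The sorted samples held transcripts of several cell types. Beyond a fit with a macrophage score, their part in the results below was not tested. The first principal component was -37.1, -3.56 and 70.2 in control and -29.1, 35.8 and -36.2 in deleted replicates. Control replicate 3 stood apart on it and had the largest difference between the 3' and 5' probes of Gapdh (1.31, against 0.75 to 1.01).

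Tested with limma over all 45037 probe sets, 0 probe sets (0%) passed an adjusted p of 0.05, and the adjusted p of every member probe set was 0.9999. Before adjustment, 934 probe sets (2.07%) had a p under 0.05, of which 0 belonged to a member. The study's own thresholds, more than a 2-fold change and a p under 0.05 before adjustment, were met by 58 probe sets (0.129%) and again by 0 members. Tests without moderation also called 0 member probe sets at each of these thresholds. Of the 8 members, 4 were lower and 4 higher in deleted samples, with a median difference of -0.04, against 8924 lower and 9269 higher genes and a median of 0.0042 over all 18193. The 95% intervals of the member differences reached 0.31 to 1.22 to either side of the estimate, against a median of 0.45 over all probe sets. With 3 arrays per group, the intervals of Csf1r and Csf2ra included a 2-fold lower level in deleted samples, and that of Csf3 a 2-fold higher one.

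**Figure D1:**
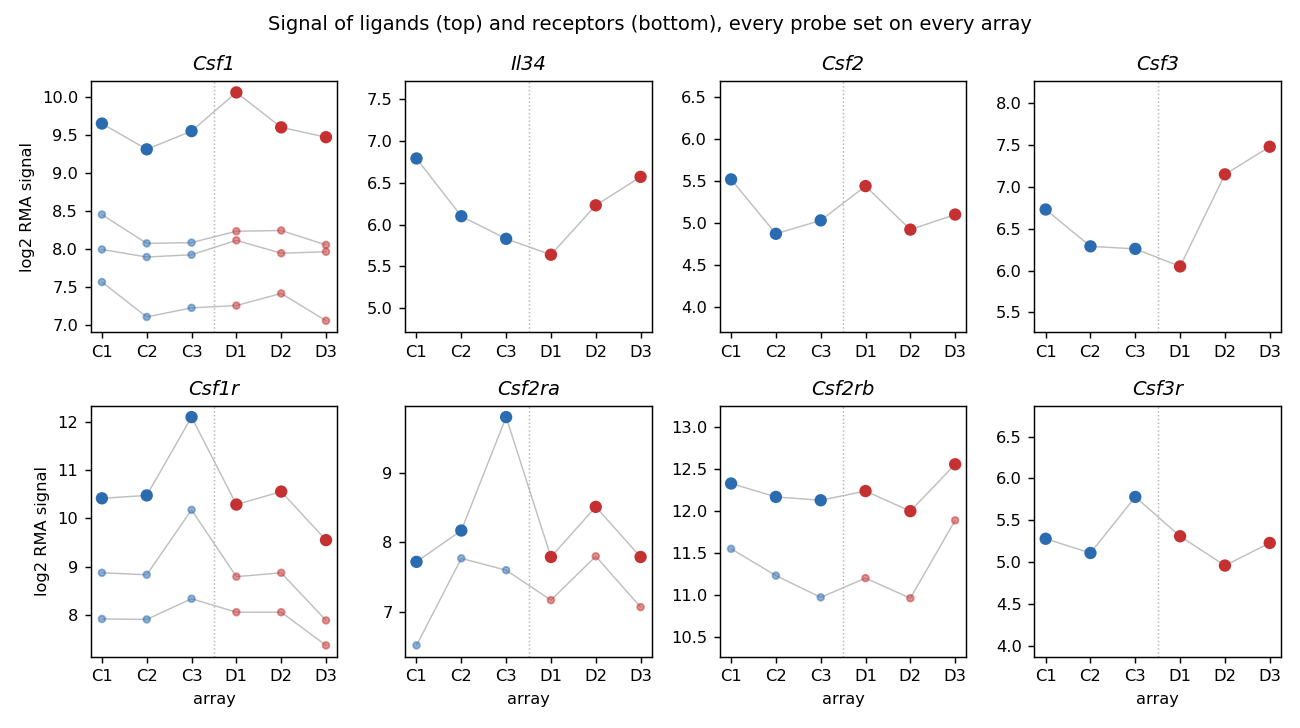
Signal (log2) of all 15 probe sets of the 8 members on each of the 6 arrays, control replicates C1 to C3 in blue and deleted replicates D1 to D3 in red. Large points are the brightest probe set of a gene, small pale points its others, gray lines join the points of a probe set, and the vertical axes differ between panels. Csf1r and Csf2ra stand highest in C3, at 12.11 and 9.80, and the points of the groups overlap in every panel.

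Csf1, the ligand that sustains macrophages, was measured at 9.65, 9.31 and 9.55 in the control replicates 1 to 3 and at 10.06, 9.60 and 9.47 in the deleted replicates. Deleted replicate 1 was the highest of the 6 and deleted replicate 3 lay within the control range. The means were 9.50 ± 0.18 and 9.71 ± 0.31 (SD, n = 3 each), a difference of 0.21 (SE 0.20, 95% interval -0.25 to 0.67). It was 0.03 without deleted replicate 1. The other 3 probe sets of the gene differed by -0.03, 0.07 and -0.06, so that neither direction held across the probe sets.

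The promoter of Csf1 is shown because, of the 4 members' promoters searched (Csf1, Csf2, Csf2ra and Csf3r), it was the one that held a match to the NF-kB consensus, through which inflammatory signals act on many cytokine genes. The sequence lies on the minus strand at chr3:107760470-107760719 (RefSeq, GRCm38.p6), the 250 bases before the annotated start of the gene (chr3:107741048-107760469). The capitals mark the match, which reads on the opposite strand.
Csf1: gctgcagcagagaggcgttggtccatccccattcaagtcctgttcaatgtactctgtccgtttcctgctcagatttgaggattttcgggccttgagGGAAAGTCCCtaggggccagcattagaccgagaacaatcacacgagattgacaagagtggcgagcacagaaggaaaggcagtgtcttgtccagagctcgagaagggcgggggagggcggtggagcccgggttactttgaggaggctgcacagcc
The consensus was matched in 3.90% of 32851 promoters of this length. A match is a description of the sequence and not evidence that the factor binds there.

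Il34, the other ligand of CSF1R, gave 6.79, 6.10 and 5.83 in control and 5.64, 6.23 and 6.57 in deleted replicates. The highest value was a control and the lowest a deleted sample, with the remaining values interleaved. The means of 6.24 ± 0.50 and 6.15 ± 0.47 (SD, n = 3 each) differed by -0.09 (SE 0.32, 95% interval -0.85 to 0.66). The difference was 0.19 without control replicate 1 and 0.16 without deleted replicate 1. Of the other proteins that bind IL-34, the proteoglycan Sdc1 (syndecan-1) differed by -0.13, the myeloid receptor Trem2 by -0.15 and the receptor phosphatase Ptprz1 by -0.09, and 0 of these 3 passed the test. Ptprz1 changed sign without control replicate 3 (0.04), deleted replicate 1 (0.11) or deleted replicate 2 (0.21).

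Csf1r, the receptor of both ligands and a defining gene of macrophages, gave 10.42, 10.48 and 12.11 in control and 10.29, 10.56 and 9.55 in deleted replicates. Control replicate 3 was far above and deleted replicate 3 below the other 4 arrays, which lay between 10.29 and 10.56. The means were 11.00 ± 0.95 and 10.13 ± 0.52 (SD, n = 3 each), a difference of -0.87 (SE 0.49, 95% interval -2.02 to 0.27, unadjusted p = 0.114 in limma). Leaving out control replicate 3 gave -0.32, leaving out deleted replicate 3 gave -0.58, and leaving out both gave -0.03. A second probe set of the gene gave 8.87, 8.83 and 10.18 against 8.79, 8.87 and 7.88, a difference of -0.78 (SE 0.42) with the same 2 arrays at the ends. The third gave 7.91, 7.90 and 8.33 against 8.05, 8.05 and 7.36, a difference of -0.23.

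The macrophage list moved with these arrays. Its 15 genes, Csf1r not among them, were all lower in deleted samples, with a median difference of -0.65, and 0 passed the adjusted threshold. Before adjustment 6 of the 15 had a p under 0.05 (2.07% of all probe sets), and the groups of 5 did not overlap (2.83% of all probe sets on the lower side), namely Cd68, Mrc1, C1qa, C1qc and Cd163. Its score, the mean signal relative to all 6 arrays, was 0.12, 0.14 and 0.61 in control and -0.29, -0.04 and -0.54 in deleted replicates. The highest score was that of control replicate 3 and the lowest that of deleted replicate 3, the arrays where Csf1r was highest and lowest. With this score as a covariate Csf1r was 0.75 (unadjusted p = 0.0468, adjusted p = 0.4587 in limma). The score did not overlap between the groups, so that this fit cannot tell the part of macrophage RNA from that of the deletion. Of the genes in the macrophage list, C1qb, a chain of complement C1q, differed by -1.30 (SE 0.50), the mannose receptor Mrc1 by -0.93 (SE 0.30) and Adgre1, which encodes F4/80, by -0.91 (SE 0.41). Adgre1 was 7.32, 7.49 and 8.24 in control and 6.66, 7.59 and 6.07 in deleted replicates, again with the extremes in replicate 3 of each group. Without these 2 arrays the median of the macrophage list was -0.32.

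Other myeloid lists held genes of both directions. The monocyte list (6 of 8 genes measured) had 3 lower and 3 higher genes and a median of -0.05, with the coagulation factor genes F13a1 at -0.86 and F10 at 0.38 and the fractalkine receptor Cx3cr1 at -0.39. Among dendritic cell markers 5 of the 6 genes measured were higher (median 0.12). Mast cell, basophil and eosinophil markers had 6 lower and 4 higher genes (median -0.05). The pan-leukocyte list lay in the direction of the macrophage list, with 8 of 10 genes lower and a median of -0.41, which was -0.03 without control replicate 3 and deleted replicate 3. The leukocyte gene Ptprc (CD45), 1 of its genes, differed by -0.43, the fibroblast gene Pdgfra by -0.59 and the endothelial gene Pecam1 by 0.39, and 0 of these 3 passed the test. All 10 fibroblast markers were lower in deleted samples (median -0.53). The groups of 5 of them, Pdgfra, Col1a1, Col1a2, Lum and Mfap5, did not overlap, against 2.83% of all probe sets on the lower side. Before adjustment 5 of the 10 had a p under 0.05 in limma, against 2.07% of all probe sets, and 0 passed the adjusted threshold. The fibroblast and macrophage genes without overlap were named after their values were seen. Of the epithelial markers 9 of 10 were lower (median -0.14), whereas 11 of 12 endothelial markers were higher (median 0.13).

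**Figure D2:**
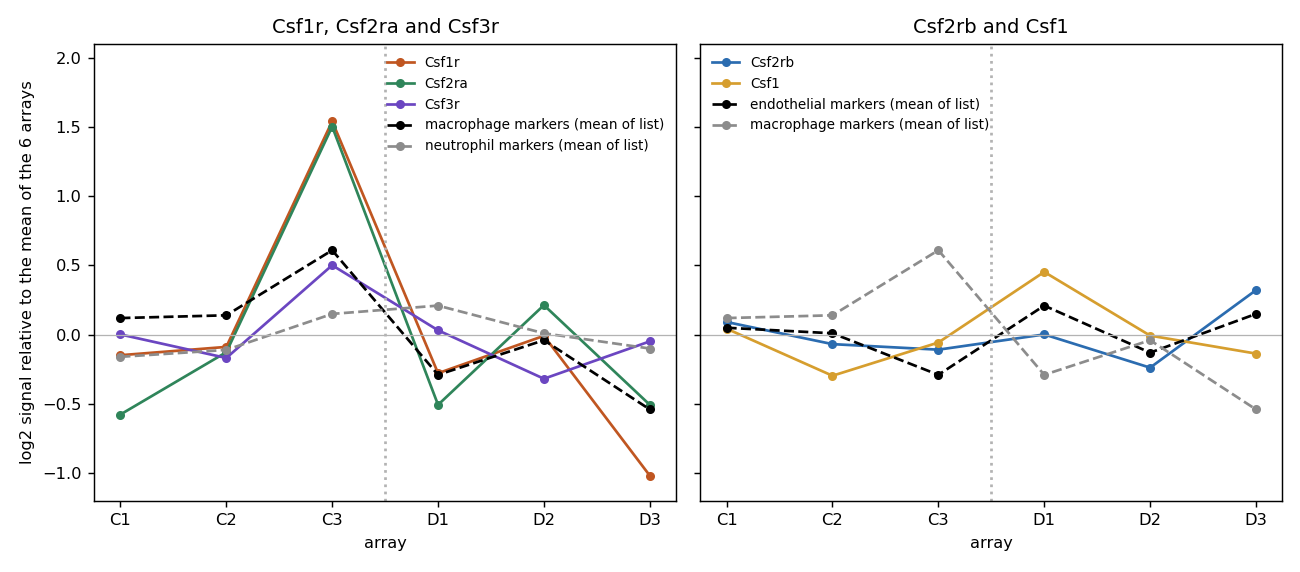
Signal relative to the mean of the 6 arrays (log2) for Csf1r, Csf2ra and Csf3r with the macrophage and neutrophil lists (left), and for Csf2rb and Csf1 with the endothelial and macrophage lists (right), on control replicates C1 to C3 and deleted replicates D1 to D3. The 3 receptor genes on the left and the macrophage list (0.61) share their highest point at C3, which Csf2rb does not. The pan-leukocyte (0.53) and epithelial (0.24) lists, not drawn, were also highest at C3, and the endothelial list was lowest there (-0.29).

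Signaling below CSF1R was represented by 13 of 17 listed genes, of which 7 were lower and 6 higher in deleted samples, with a median of -0.01. The largest difference was that of Tyrobp (-0.50), which encodes the adaptor DAP12 of macrophages and related cells, with 10.01, 10.09 and 10.63 in control and 9.32, 10.39 and 9.52 in deleted replicates. Tyrobp too was highest in control replicate 3. The ubiquitin ligase gene Cbl, whose product removes activated CSF1R from the surface, differed by 0.45, with 0.01 without deleted replicate 1 and 1.12 without deleted replicate 2. The phospholipase gene Plcg2 differed by -0.27. The value of Plcg2 was 0.17 without control replicate 3, and the median of the list 0.10.

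Csf2, a cytokine of activated lymphocytes, endothelium and fibroblasts, gave 5.52, 4.87 and 5.03 in control and 5.44, 4.92 and 5.10 in deleted replicates. The groups covered the same range. The means were 5.14 ± 0.34 and 5.16 ± 0.26 (SD, n = 3 each), a difference of 0.02 (SE 0.22, 95% interval -0.50 to 0.54), whose sign changed without control replicate 2 (-0.12), control replicate 3 (-0.04) or deleted replicate 1 (-0.13). For orientation, 13 genes of tissues not sampled here, such as pituitary hormones and sperm proteins, had mean signals of 2.95 to 8.53 with a median of 6.07. The means of Csf2 (5.15), Csf3r (5.28), Il34 (6.19), Csf3 (6.66) and Csf2ra (8.30) over the 6 arrays lay inside that range, with Csf2ra near its upper end. The range comes from other probe sets of other sensitivity, and these signals alone did not establish the presence of the 5 genes in the cells.

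Csf2ra, the alpha chain that binds CSF2, gave 7.72, 8.17 and 9.80 in control and 7.79, 8.51 and 7.79 in deleted replicates. Control replicate 3 stood alone and the other 5 arrays were interleaved. The means were 8.56 ± 1.09 and 8.03 ± 0.42 (SD, n = 3 each), a difference of -0.53 (SE 0.52, 95% interval -1.76 to 0.69), which was 0.08 without control replicate 3. The second probe set of the gene gave 6.52, 7.77 and 7.60 against 7.17, 7.80 and 7.07, a difference of 0.05 (SE 0.36), and did not show the peak in control replicate 3.

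Csf2rb, the beta chain shared by the receptors of CSF2, IL-3 and IL-5, gave 12.33, 12.17 and 12.13 in control and 12.24, 12.00 and 12.56 in deleted replicates. It was highest in deleted replicate 3, where Csf1r was lowest, and its 6 values lay closer together than those of the alpha chain. The means were 12.21 ± 0.10 and 12.27 ± 0.28 (SD, n = 3 each), a difference of 0.06 (SE 0.18, 95% interval -0.36 to 0.48), and -0.08 without deleted replicate 3. A second probe set gave 11.55, 11.23 and 10.97 against 11.20, 10.96 and 11.89, a difference of 0.10 (SE 0.27), again with deleted replicate 3 highest. The interval of the first probe set excludes a 2-fold difference in either direction.

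Mice carry a near copy of this gene, Csf2rb2, whose product serves IL-3 alone. It lies beside Csf2rb (chr15:78282507-78305721 and chr15:78325800-78351001, RefSeq, GRCm38.p6). Its signals were 12.47, 12.25 and 12.40 in control and 12.27, 12.27 and 12.67 in deleted replicates, a difference of 0.03 (SE 0.16), and -0.10 without deleted replicate 3. Like Csf2rb, it was highest in deleted replicate 3. A probe set that names both genes was left out, and cross-hybridisation between the remaining probe sets was not tested. Of the family's relatives, 8 of 9 were measured, with 2 lower and 6 higher and a median of 0.05. The largest differences were those of the cytokine Il3 (0.27), the receptor kinase Flt3 (0.25) and the IL-5 receptor chain Il5ra (-0.19). Their mean signals of 3.49, 5.62 and 4.88 lay within the range of the genes of tissues not sampled (2.95 to 8.53).

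Csf3, which calls neutrophils out of the marrow, gave 6.73, 6.29 and 6.26 in control and 6.05, 7.15 and 7.48 in deleted replicates. Deleted replicates 2 and 3 were above all controls, whereas deleted replicate 1 was the lowest of the 6 arrays. The means were 6.43 ± 0.26 and 6.89 ± 0.75 (SD, n = 3 each), a difference of 0.46 (SE 0.36, 95% interval -0.39 to 1.32, unadjusted p = 0.241 in limma). It was 0.88 without deleted replicate 1, with an unadjusted p of 0.00642 and an adjusted p in limma of 0.9999, and 0.17 without deleted replicate 3.

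Cytokines that stimulate endothelium, and genes switched on beside CSFs in it, formed a list of which 14 of 15 were measured. Of these, 12 were higher and 2 lower in deleted samples, with a median of 0.17, against 9269 higher of all 18193 genes. The score of the list was -0.13, -0.20 and 0.04 in control and 0.11, -0.18 and 0.36 in deleted replicates. The scores of the groups overlapped, with deleted replicate 2 below control replicates 1 and 3. The groups of 2 of the 14 genes did not overlap, against 3.61% of all probe sets on the higher side. The first was Il6, a cytokine induced by NF-kB, with 9.25, 9.17 and 9.36 in control and 9.89, 9.70 and 10.24 in deleted replicates. It differed by 0.68 (SE 0.17, unadjusted p = 0.00553, adjusted p = 0.9999 in limma). The second was the neutrophil chemokine Cxcl1, with 10.46, 10.39 and 10.30 in control and 10.82, 10.63 and 10.89 in deleted replicates, a difference of 0.40 (unadjusted p = 0.0242 in limma), named here after its values were seen. Unlike Csf3, both were above every control in deleted replicate 1. Tnfaip3, a feedback inhibitor of NF-kB, differed by 0.43 and the adhesion molecule gene Vcam1 by 0.42.

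The mRNAs of several CSFs are short-lived, and 7 genes of proteins that destroy or protect them were measured, with 3 lower and 4 higher in deleted samples (median 0.06). Elavl1, which encodes the stabilizing protein HuR, differed by 0.30. The RNase gene Zc3h12a (regnase-1) differed by 0.27, and by -0.05 without deleted replicate 3. Zfp36, which encodes the destabilizing protein tristetraprolin, differed by 0.09, and by -0.05 without deleted replicate 3 and -0.01 without control replicate 3. None of the 7 passed the test.

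Csf3r, the receptor of CSF3, gave 5.28, 5.11 and 5.78 in control and 5.31, 4.96 and 5.23 in deleted replicates. Control replicate 3 was again the highest. The means were 5.39 ± 0.35 and 5.16 ± 0.18 (SD, n = 3 each), a difference of -0.23 (SE 0.21, 95% interval -0.72 to 0.26), and -0.03 without control replicate 3. The neutrophil list (9 of 12 genes measured) had 3 lower and 6 higher genes, a median of 0.08, and array means of 6.68 to 6.99 in control and 6.74 to 7.05 in deleted samples. Its largest differences were those of S100a9 (0.78), a calprotectin subunit that macrophages and epithelium can also make, and of the granule genes Camp (0.38) and Mpo (-0.38). The other calprotectin subunit gene, S100a8, differed by -0.37 at a brighter signal (mean 11.82, against 8.72 for S100a9). Ltf (13.42) and S100a8 were the brightest genes of the list, whose median signal was 4.99. Epithelial genes were bright in these samples too, and which cells gave the Ltf and S100a8 signals was not tested. Camp had group means of 4.98 and 5.36 and Mpo of 4.64 and 4.27, within the range of the genes of tissues not sampled.

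The promoters of Csf2ra and Csf3r are shown because, of the 4 searched, these held the longer ETS sequence AGGAAG. It is the kind of site that PU.1 (Spi1), Ets2 and their relatives recognise. Both genes peaked in control replicate 3, Csf2ra at its brightest probe set only. Csf1r peaked there too (12.11), and its promoter was left out by choice. A link between the sequence and the signals was not tested. The Csf2ra sequence lies on the minus strand at chr19:61228419-61228668 and that of Csf3r on the plus strand at chr4:126024409-126024658 (RefSeq, GRCm38.p6, 250 bases before an annotated start, with another annotated transcript of each gene beginning farther upstream). Capitals mark AGGAAG on either strand.
Csf2ra: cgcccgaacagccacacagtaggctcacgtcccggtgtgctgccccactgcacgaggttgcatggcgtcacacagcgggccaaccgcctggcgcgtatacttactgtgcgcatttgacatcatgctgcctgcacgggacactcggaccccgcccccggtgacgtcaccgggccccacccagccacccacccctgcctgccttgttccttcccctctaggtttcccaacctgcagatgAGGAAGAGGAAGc
Csf3r: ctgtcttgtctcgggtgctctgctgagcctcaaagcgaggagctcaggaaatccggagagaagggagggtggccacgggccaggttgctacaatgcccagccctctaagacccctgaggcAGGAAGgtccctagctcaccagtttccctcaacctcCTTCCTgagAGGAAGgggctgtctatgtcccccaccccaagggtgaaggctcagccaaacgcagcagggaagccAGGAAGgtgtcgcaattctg
AGGAAG was found 2 times in Csf2ra and 4 times in Csf3r, and in 29.5% of the 32851 promoters. The promoters of Csf1 and Csf2 did not hold it. The core GGAA alone was found in 93.4% of all promoters and in each of the 4 searched. In all, 9 sequences were searched on both strands. Overlapping forms of the ETS site were the core, GGAAG with 1 match in Csf2, 3 in Csf2ra and 5 in Csf3r (64.1% of promoters), and GAGGAA with 2 in Csf2ra and 1 in Csf3r (23.3%). The forms GGAAGT (19.7%) and AGGAAGT (7.69%) had no match in these 4 promoters. The AP-1 sequence TGANTCA (6.75%) and the TATA box TATAAA (12.4%) had none either, which says only that these letters are not in those 250 bases.

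Of the transcription factor genes of the myeloid receptors, 9 of 11 were measured, with 4 lower and 5 higher in deleted samples and a median of 0.02. Spi1, which encodes PU.1, the factor on which Csf1r depends in macrophages, differed by 0.19, and by -0.08 without deleted replicate 1. The repressor gene Gfi1 differed by 0.46, Irf8 by 0.29 and Cebpb by -0.21, and 0 of the 9 passed the test. The mean signals of Gfi1 (5.13) and Spi1 (6.17) lay within the range of the genes of tissues not sampled. Ets2 itself differed by 0.02 in these sorted cells. The Ets2 value is no check of the deletion, which was directed to fibroblasts, and it was -0.04 without control replicate 3 and -0.02 without deleted replicate 3.

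Below the receptors of CSF2 and CSF3, 14 of 15 genes of JAK-STAT signaling were measured, with 5 lower and 9 higher in deleted samples and a median of 0.09. The kinase gene Jak1 differed by 0.34. Stat3, which carries the CSF3 signal, differed by -0.27, and by 0.00 without deleted replicate 2. Stat5a, which carries the CSF2 signal, gave 12.03, 11.90 and 12.04 in control and 11.85, 11.66 and 11.72 in deleted replicates. Its groups did not overlap, with a difference of -0.25 (SE 0.13). Over all 7 pathway lists, 26 of 68 genes were lower and 42 higher, with a median of 0.04. The groups of 6 of them (8.82%) did not overlap, against 6.44% of all probe sets. These were Il6, Cxcl1, Il3 and Gfi1 on the higher side and Stat5a and Il5ra on the lower. Il3, Gfi1 and Il5ra were dim, with mean signals of 3.49, 5.13 and 4.88, below the median of the genes of tissues not sampled (6.07). None of the 68 passed the adjusted threshold in limma, and 2 had an unadjusted p under 0.05.

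**Figure D3:**
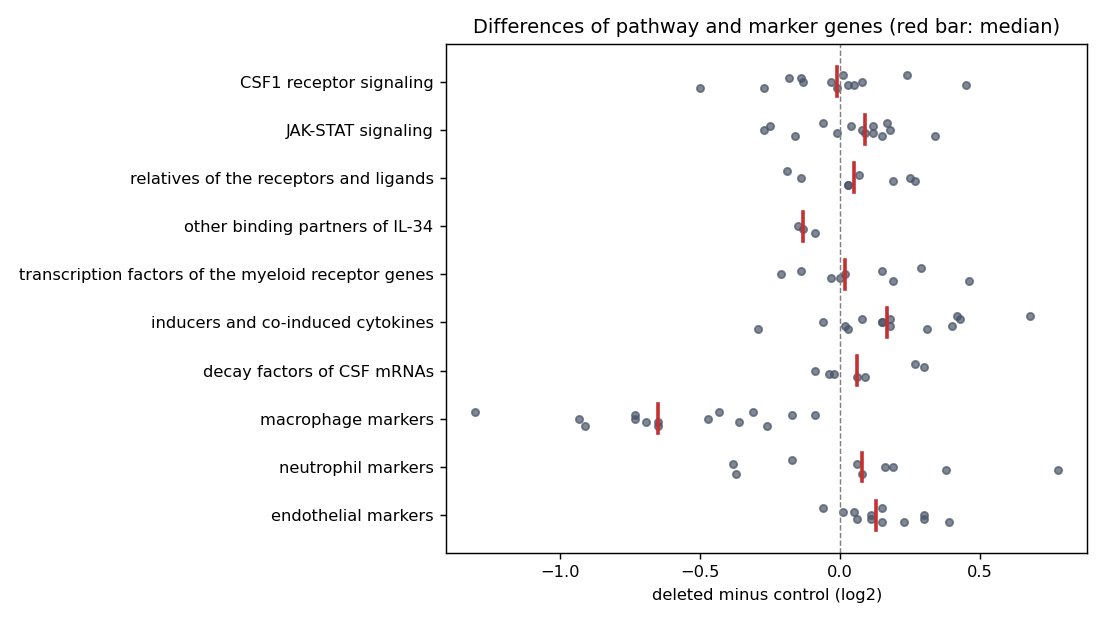
Deleted minus control differences (log2) of the genes in the 7 pathway lists and in the macrophage, neutrophil and endothelial marker lists, 1 point per gene at its brightest probe set, with a red bar at the median of each list. The list of inducers lies mostly to the right of 0 (12 of 14), whereas CSF1 receptor signaling is split 7 to 6.

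**Figure D4:**
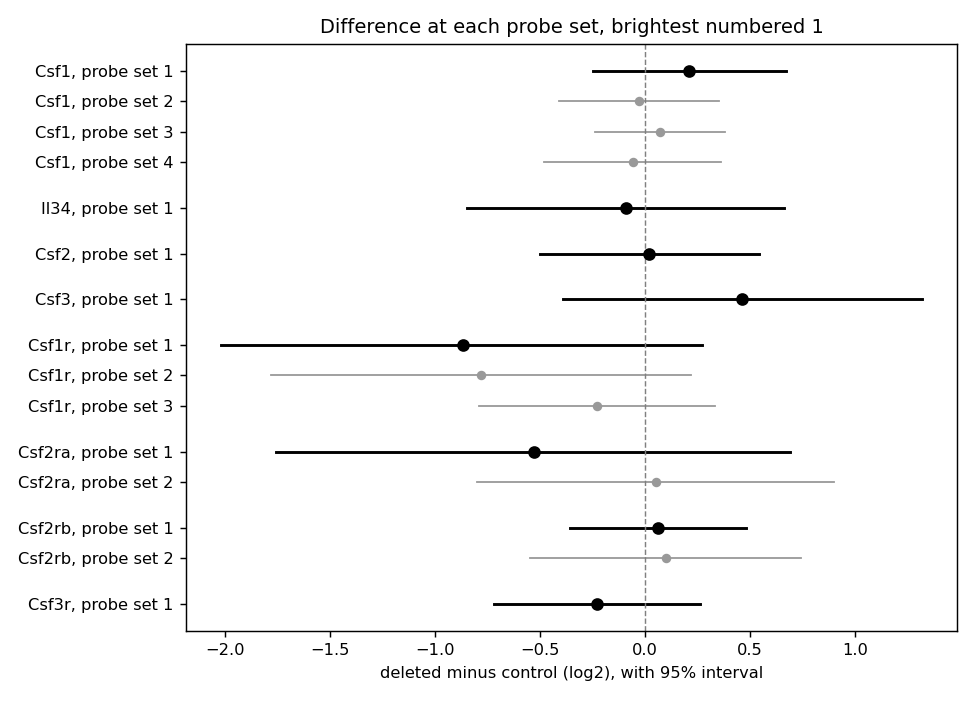
Deleted minus control differences (log2) of the 15 member probe sets with their 95% intervals from limma, grouped by gene, the brightest probe set of each in black and the others in gray. Every interval includes 0, and the widest, that of Csf2ra, reaches from -1.76 to 0.69.

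The size of the members' differences depended on single arrays. Leaving out each array in turn, Csf1r ranged from -1.16 to -0.32, Csf2ra from -0.95 to 0.08, Csf3 from 0.17 to 0.88, Csf1 from 0.03 to 0.32, Csf3r from -0.37 to -0.03, Il34 from -0.30 to 0.19, Csf2 from -0.13 to 0.21 and Csf2rb from -0.08 to 0.19. Csf1, Csf1r, Csf3 and Csf3r kept the direction of their brightest probe set in all 6 of these fits. Control replicate 3 set the high end for Csf1r, Csf2ra and Csf3r. When control replicate 3 and deleted replicate 3 were dropped together, the differences were 0.35 for Csf1, -0.03 for Csf1r, -0.51 for Il34, -0.01 for Csf2, 0.20 for Csf2ra, -0.12 for Csf2rb, 0.09 for Csf3 and -0.06 for Csf3r, so that the order of the members by size was a different one.

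**Figure D5:**
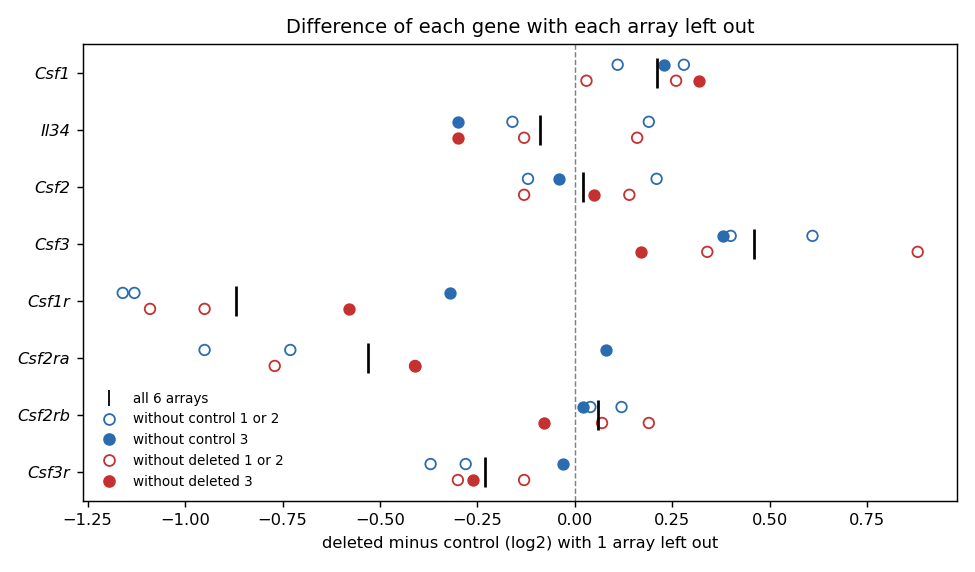
Deleted minus control difference (log2) of the 8 members with all 6 arrays (black bar) and with each array left out in turn, blue where a control and red where a deleted replicate was left out, filled for replicate 3. Csf1r moves from -0.87 to -0.32 and Csf2ra from -0.53 to 0.08 when control replicate 3 is left out.

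The genes whose signals followed a member most closely over the 6 arrays were found by Pearson correlation among the brighter and more variable genes. With 6 arrays and many genes compared, these values are a description without a test. Nearest to Csf1r were Cgrrf1 (r = 0.992), Lrrc15 (0.992) and the collagen gene Col6a2 (0.990). Nearest to Csf2ra were Zfp511 (0.999), the splicing factor gene Sf3a2 (0.998) and Acy3 (0.998), and to Csf3r Zfp46 (0.983), Sugp2 (0.975) and Six5 (0.970). Nearest to Csf2rb were the kinase gene Srpk2 (0.991), Polr3gl (0.988) and Atp8b1 (0.988). Among the ligands, Csf1 was followed by Rasgrp2 (0.981), Pcdhb16 (0.965) and Tgm1 (0.963), and Il34 by Nln (0.984), Adgrl3 (0.984) and Slfn2 (0.977). Csf2 was followed by Tet3 (0.985), Nwd1 (0.976) and Lef1 (0.976), and Csf3 by Cenpb (0.956), Stac (0.952) and Stard3nl (0.932). None of the marker genes listed for myeloid cells was among the nearest 3 of any member. With 3 genes kept of 6100 or 6101 compared, this absence does not show whether a member followed myeloid genes.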

How the data were processed

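RNA of CD31-sorted mammary endothelial cells was amplified and hybridised to Affymetrix Mouse Genome arrays (3 control and 3 deleted samples). The authors deposited log2 intensity values normalised by RMA, which corrects background, quantile normalises the arrays and summarises each probe set. Array medians lay between 7.02 and 7.07, and the number of arrays limits the precision. Of 45101 probe sets, 64 array controls were left out and 45037 entered a linear model in limma 3.58.1 (R 4.3.3, eBayes, no covariates), with Benjamini-Hochberg adjustment over all of them. The procedure was run on simulated data with independent noise and added differences larger than that of any member. That run does not measure the power to find differences of the members' size. Probe sets were named through the platform annotation: 34945 had 1 gene, 932 several and 9160 none named here, and 34741 were matched to current RefSeq symbols by gene number. A gene was represented by its brightest probe set naming 1 gene.

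The members and all lists were chosen with earlier results of these data known, and the lists are described by counts and medians with no test. Named were all members, Csf2rb2, Tyrobp, Spi1, Ets2, Pecam1, Ptprc, Adgre1 and Pdgfra, the 3 genes of each list with the largest difference, and the 3 genes most correlated with each member among genes with a signal above the median probe set and at least median variation. The marker lists other than macrophage, monocyte and neutrophil are given mainly by their counts and medians. Promoters of Csf1, Csf2, Csf2ra and Csf3r came from a RefSeq set, which held no entry for Il34, Csf2rb or Csf3. That of Csf1r was left out by choice. Sample identifiers share a leading number in 2 pairs of samples, and nothing in the labels calls these littermates. Alternatives covered a filter on dim probe sets, the prior, unmoderated tests, array weights, scaling, the replicate block, other probe sets, a macrophage score as covariate, and leaving out arrays. Leaving out the third arrays together was added after seeing the data.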

Additional observations from a re-analysis of the deposited data

How the results depend on the processing

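With 3 arrays per group, none of the 17 settings counted gave a probe set past the adjusted threshold (0 in each). The fit with the macrophage score and the fit of gene means were not counted in this way. The 58 probe sets at the study's thresholds became 15 among probe sets above the median signal, 23 and 18 in unmoderated tests with equal and unequal variances, 152 with array weights, 317 with the identifier number as a fixed replicate block, 253 without the third arrays, and 61 to 191 with 1 array left out. The 934 at an unadjusted p under 0.05 became 306 after the signal filter, 3543 with array weights, 3665 with the fixed replicate block, 2390 without the third arrays, and 736 to 1621 with 1 array left out. The identifier number pairs 2 samples of each group (correlations of their deviations 0.166 and -0.0171), and neither the labels nor these 2 pairs settle whether the samples are paired. The fixed replicate block, and equally the fit without the third arrays, reversed Csf2 (-0.01), Csf2ra (0.20), Csf2rb (-0.12), Csf2rb2 (-0.09), Cbl (-0.08), Ets2 (-0.08), Plcg2 (0.24), Zc3h12a (-0.26) and Zfp36 (-0.15). As a random replicate block it reversed no member (Csf1r -0.81, Csf3 0.44). Array weights reversed Il34 (0.05), Csf3r (0.03) and Ptprz1 (0.36), and further quantile normalization Csf2 (-0.01). Other probe sets reversed Csf1 (-0.03 and -0.06) and Csf2ra (0.05), and gene means Ptprz1 (0.09). With the macrophage score as a covariate, Csf1r was 0.75 (unadjusted p = 0.0468, adjusted p = 0.4587 in limma), Csf2ra 1.09, Csf2 -0.20, Csf2rb -0.31 and Csf3r 0.02. That score did not overlap between the groups. Without the third arrays the median of the macrophage list was -0.32, of the mast cell, basophil and eosinophil list 0.04 and of the pan-leukocyte list -0.03, and with gene means that of the transcription factors was 0.14. With 1 array left out, Il34 ranged from -0.30 to 0.19, Csf2 from -0.13 to 0.21, Csf2ra from -0.95 to 0.08, Csf2rb from -0.08 to 0.19, Csf2rb2 from -0.10 to 0.10, Ets2 from -0.04 to 0.08, Plcg2 from -0.58 to 0.17, Ptprz1 from -0.58 to 0.21, Spi1 from -0.08 to 0.40, Zc3h12a from -0.05 to 0.53 and Zfp36 from -0.05 to 0.23. The medians ranged from -0.06 to 0.10 for CSF1 receptor signaling, -0.02 to 0.26 for neutrophil markers and 0.01 to 0.17 for the relatives. The causes were not tested.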
